A study of Homo sapiens with 24 samples.

Results

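The genes described here are 10 heat shock genes: HSPA1A, HSPA1B, HSPA8, DNAJB1, HSPH1, HSP90AA1, HSPB1, BAG3, HSPE1, and HSPD1. They were chosen by name, and each row of the table of all samples whose Ensembl identifier maps to one of these symbols was taken. All 10 were found among the 43037 genes of the table, and all 10 were among the 12327 genes with at least 5 CPM (tags per 1000000 tags on genes) in at least 1 library, the genes that were tested. The working name of the set, cytosolic heat shock genes, does not hold for all of them: HSPD1 and HSPE1 encode the chaperonin and co-chaperonin of the mitochondrial matrix. The other 8 encode chaperones or co-chaperones of the cytosol and nucleus.

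The data were CAGE-Seq libraries, in which 1 tag marks the capped 5′ end of 1 transcript, so that the tags of a gene do not grow with its length. CPM can be compared between genes only as far as tags were assigned to the right gene. That is uncertain for several members, as given below. They came from 4 established lines of human glioblastoma (T98G, U87MG, DBTRG-05MG, and U251MG), and every line had 3 “Vec” and 3 “WWOX” libraries, which makes 24. “WWOX” cells were stably transduced with the lentiviral vector pLenti-GIII-CMV-GFP-2A-Puro to overexpress WWOX, and “Vec” cells with the Puro-Blank Lentivirus. The paper names the GIPZ lentiviral system for the “WWOX” cells instead. Both variants received a multiplicity of infection of 1.5 and selection with 1 µg/mL puromycin, so the controls share the transduction, polybrene, and the antibiotic. The time with virus and the time at which selection began were also the same for all samples. By its name the pLenti-GIII vector uses the CMV promoter and also carries GFP, which the “WWOX” cells would then have had besides WWOX. The labels do not say so of the control virus. T98G cells were grown in MEM, DBTRG-05MG cells in RPMI medium, and U251MG and U87MG cells in EMEM, so that a difference between lines grown in different media cannot be told apart from a difference of medium. The study describes the libraries of a variant as biological triplicates and the selection with puromycin as clonal. Whether the 3 libraries of a variant came from separate transductions is not stated. If they did not, the p-values do not cover differences between transduced cells. An effect of WWOX below means “WWOX” against “Vec” cells, and WWOX itself cannot be told apart from such differences.

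Heat shock proteins bind unfolded stretches of other proteins and help them fold, refold, or be degraded. HSP70 proteins (HSPA1A, HSPA1B, HSPA8) work in cycles driven by ATP. J-domain proteins such as DNAJB1 bring them their substrates, and HSPH1 and BAG3 help them exchange nucleotide. HSP90AA1 acts later on signalling proteins, and HSPB1 is a small heat shock protein that holds unfolded proteins without ATP. Some of these genes, such as HSPA8, are transcribed in every cell, whereas others, such as HSPA1A, HSPA1B, and DNAJB1, are transcribed strongly when the factor HSF1 binds repeats of the unit NGAAN, the heat shock element, under heat, oxidants, or misfolded protein.

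The targeted gene and the identity of the lines were looked at first. WWOX itself stood at 33.9 to 40.1 CPM in U87MG “Vec” and 61.0 to 66.0 in U87MG “WWOX”, at 20.4 to 22.2 and 28.0 to 32.0 in DBTRG-05MG, and at 34.2 to 57.2 and 45.1 to 61.8 in T98G. In U251MG the “Vec” libraries held 31.4, 36.8, and 32.1 CPM and the “WWOX” libraries 56.7, 17.4, and 38.0. No line passed the test for WWOX, with log2FC between -0.01 and 0.66 and a smallest limma adjusted p of 0.136. Tags of the transgene start in the vector, and whether they were counted for WWOX is not given in the sources used here. The library labelled U251MG “WWOX” replicate 2 lay below all 3 “Vec” libraries of its line, so the values without it are given for the effect of WWOX in U251MG, for the spread within groups, and for the correlations with HSPA1B. Of 5 markers of glial and mesenchymal cells, VIM, CD44, and GFAP had more than 3 tags in all 24 libraries, with GFAP from 0.790 to 3226 CPM, whereas NES had 3 tags or fewer in 5 libraries and S100B in 8. Of 10 markers of other cell types, PTPRC, AIF1, PECAM1, and RBFOX3 had 3 tags or fewer in every library. CD68, EPCAM, CDH1, and VWF had more than 3 tags in a few libraries and reached 0.850, 0.914, 2.33, and 0.330 CPM at most. SNAP25, a neuronal gene, reached 32.5 CPM and KRT18, an epithelial keratin, 1259.7 CPM, with more than 3 tags in all but 1 and all but 4 libraries. The libraries held 10756072 to 16953689 tags, so 3 tags correspond to 0.177 to 0.279 CPM.

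The sequences before the annotated starts are shown for some of the genes whose levels moved together between libraries and for a pair of near-identical copies. Those of HSP90AA1 and HSPA8 are shown as a comparison. HSPH1 and BAG3 also moved with HSPA1B, but have no match of the heat shock element in this window and are not printed. Every sequence printed holds a match, so the sequences do not show whether genes that moved together share it. They come from RefSeq (GRCh38.p14), are written 5′ to 3′ on the strand of the gene, and lie within the 250 bases before an annotated start. Bases inside annotated UTRs were left out, so those of DNAJB1 and HSPA8 stop short of the start. Capitals mark each match of a heat shock element of 2 units, GAANNTTC or TTCNNGAA, each of which is its own reverse complement, so that both strands are searched at once. A run of 3 units (GAANNTTCNNGAA or its reverse complement TTCNNGAANNTTC) always holds 2 overlapping matches of 2 units and appears as 1 longer run of capitals.
HSPA1A, chr6:31815293-31815542, plus strand: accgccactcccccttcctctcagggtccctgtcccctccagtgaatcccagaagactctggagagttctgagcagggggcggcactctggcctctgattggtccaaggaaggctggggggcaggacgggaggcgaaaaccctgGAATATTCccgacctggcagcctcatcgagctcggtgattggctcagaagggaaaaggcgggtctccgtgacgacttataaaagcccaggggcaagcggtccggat
HSPA1B, chr6:31827488-31827737, plus strand: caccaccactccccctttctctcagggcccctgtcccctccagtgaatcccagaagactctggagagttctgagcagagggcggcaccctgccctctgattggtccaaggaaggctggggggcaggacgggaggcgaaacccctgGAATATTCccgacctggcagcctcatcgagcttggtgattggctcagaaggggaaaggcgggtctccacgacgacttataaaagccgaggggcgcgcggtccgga
DNAJB1, chr19:14518408-14518647, minus strand, 1 of 3 annotated starts: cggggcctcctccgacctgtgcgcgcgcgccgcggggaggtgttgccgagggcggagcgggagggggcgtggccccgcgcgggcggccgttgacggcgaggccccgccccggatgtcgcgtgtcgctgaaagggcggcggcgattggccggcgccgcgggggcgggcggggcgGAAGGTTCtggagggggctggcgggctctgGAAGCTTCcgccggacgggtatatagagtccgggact
HSPA6, chr1:161524290-161524539, plus strand: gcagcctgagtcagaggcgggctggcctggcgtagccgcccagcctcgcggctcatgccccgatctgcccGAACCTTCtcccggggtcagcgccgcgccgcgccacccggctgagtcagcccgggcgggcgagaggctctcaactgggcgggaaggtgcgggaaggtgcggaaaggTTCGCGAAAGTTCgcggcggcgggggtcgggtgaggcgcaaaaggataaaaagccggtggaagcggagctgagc
HSP90AA1, chr14:102087045-102087294, minus strand, 1 of 2 annotated starts: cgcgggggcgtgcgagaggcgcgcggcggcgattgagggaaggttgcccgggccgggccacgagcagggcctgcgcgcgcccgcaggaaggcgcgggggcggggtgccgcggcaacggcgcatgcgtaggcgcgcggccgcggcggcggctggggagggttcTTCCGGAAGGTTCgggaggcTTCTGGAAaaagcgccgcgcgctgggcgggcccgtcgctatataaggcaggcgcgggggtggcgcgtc
HSPA8, chr11:123062353-123062386, minus strand: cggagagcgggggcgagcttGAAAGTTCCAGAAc

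HSPA6 is no member, but is shown since its level followed that of HSPA1B most closely of all genes outside the set. In the 250 bases before the start, a match of 2 units stood in at least 1 window of 7 of the 10 members, and a run of 3 units in 3 of 10 (HSPA8, HSP90AA1, HSPD1). Of the 27305 genes in the table, 14.0% had at least 1 window of this length with a match of 2 units and 0.557% one with a run of 3. In HSPA1A the match lay 106 to 99 bases before the start, and in HSPA1B 105 to 98. In DNAJB1 there were 2 matches, 77 to 70 and 47 to 40 bases before the start, and in HSPA6 a run of 3 units lay 74 to 62 bases before it. TATAAA, searched on both strands, was found in HSPA1A and HSPA1B only among the members, against 13.05% of all genes. CCAAT, also searched on both strands, was found in 5 members, against 37.0% of all genes. No match in HSPH1, BAG3, or HSPE1 says only that these letters are not in this window. The window used for HSPE1 (chr2:197500129-197500378) lies wholly in annotated UTR and mostly past 197500140, where the annotated span of the gene starts. The HSPD1 window with the runs of 3 units (chr2:197499841-197500090) lies before that HSPE1 start. The counts of 7 and 3 of 10 thus hold for the windows used only. The table counts tags per gene, so which start was used is not known for the genes with more than 1.

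**Figure D1:**
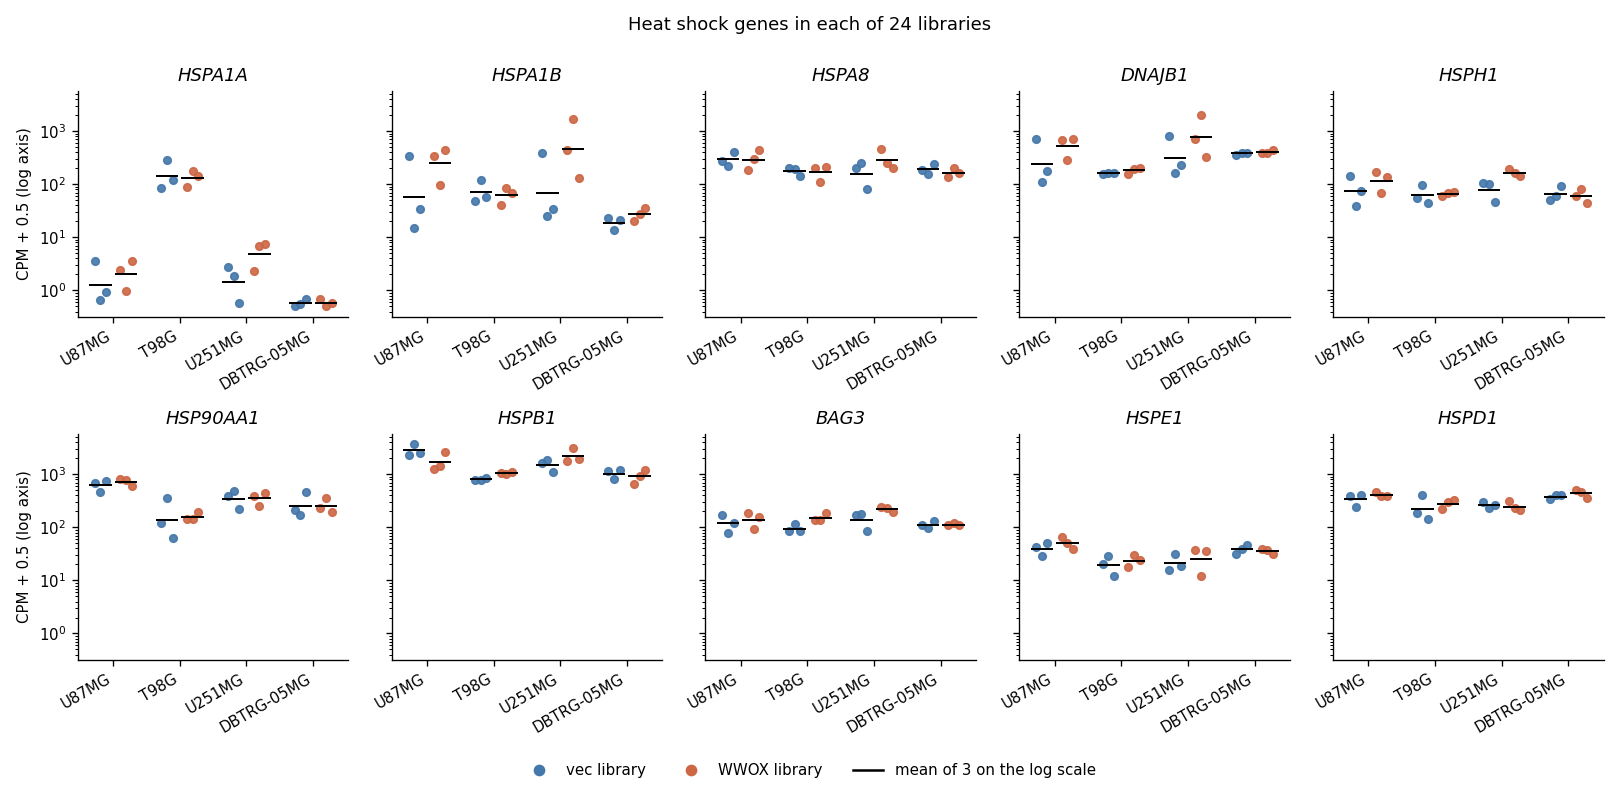
CPM + 0.5 on a log axis for the 10 heat shock genes, with 1 point per library (3 per group), blue for “Vec” and orange for “WWOX”, and a bar at the mean of the 3 on the log scale. HSPA1A stands high in T98G alone, HSPA1B and DNAJB1 scatter widely within U87MG and U251MG, and HSPB1 is the highest member in all 24 libraries.

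HSPA1B, the stress-inducible HSP70, varied more between libraries of 1 group than nearly all other genes. In U87MG “Vec” its level was 344, 14.8, and 34.4 CPM (replicates 1 to 3), and in U87MG “WWOX” 347, 98.3, and 447 CPM. In U251MG “Vec” it was 395, 24.9, and 33.5 CPM, and in U251MG “WWOX” 446, 1717, and 128 CPM. In both lines 1 “Vec” library stood at the level of the “WWOX” libraries while the other 2 were far lower, so the variants overlapped. The highest library of a group exceeded the lowest by 23.3 times in U87MG “Vec”, by 15.9 times in U251MG “Vec”, and by 13.4 times in U251MG “WWOX”. In T98G the libraries were closer, at 48.1, 122, and 57.9 CPM in “Vec” and 40.4, 83.0, and 68.1 in “WWOX”. In DBTRG-05MG they were lowest, at 22.5, 13.3, and 20.3 CPM in “Vec” and 20.0, 27.6, and 35.0 in “WWOX”. In these lines too the variants overlapped. In bulk RNA, more cells with the transcript and more transcript per cell cannot be told apart.

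DNAJB1, the J-domain partner that hands substrates to HSP70, showed the same pattern in U87MG and U251MG from a higher base. It stood at 713, 111, and 177 CPM in U87MG “Vec” and at 687, 292, and 725 in U87MG “WWOX”. In U251MG the values were 797, 161, and 233 CPM in “Vec” and 716, 2046, and 332 in “WWOX”. The libraries high in HSPA1B were also the ones high in DNAJB1. The libraries of T98G lay within 158 to 162 CPM in “Vec” and within 156 to 206 in “WWOX”, and those of DBTRG-05MG within 363 to 393 and 384 to 451. DBTRG-05MG was thus lowest for HSPA1B but held more DNAJB1 than T98G in all 6 libraries.

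HSPA1A, the second inducible HSP70 gene, was present at a high level in 1 line only. In T98G it stood at 86.3, 285, and 118 CPM in “Vec” and 89.3, 174, and 140.0 in “WWOX”. In U87MG it ranged from 0.155 to 3.05 CPM in “Vec” and from 0.475 to 3.05 in “WWOX”, and in U251MG from 0.0670 to 2.27 and from 1.85 to 6.90. In DBTRG-05MG no library held more than 3 tags, so the gene was at the detection limit there. Every T98G library lay above every library of the other lines. Between T98G “WWOX” and the next group in order, U251MG “WWOX”, the gap was 4.87 (log2 of scaled CPM + 0.5) with a limma adjusted p of 2.27e-06. The variants of T98G differed by a log2FC of -0.14 (SE 0.64, adjusted p = 0.966).

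HSPA1A and HSPA1B lie near each other on chromosome 6 (hg38, 31815543 to 31817946 and 31827738 to 31830254, both on the plus strand) and encode nearly the same protein. Their windows before the start, printed above, share 93.6% of aligned positions. The share of HSPA1A in the tags of both was 64.2% to 70.0% in the 6 T98G libraries, with a pooled share of 68.1% (12719 of 18679 tags). In U87MG it was 0.481% to 1.21% (125 of 18049 tags pooled). In U251MG it was 0.200% to 5.15%, and in DBTRG-05MG it reached 0.965% at most. In the U251MG “WWOX” library with 24098 tags of both genes, 91 were of HSPA1A, a share of 0.378% with a 95% Wilson interval of 0.308% to 0.463%. These intervals cover counting error only. The share thus stayed low in the libraries of U87MG and U251MG with the most HSPA1B, and stayed within the narrow range above in T98G while the summed level ran from 129.7 to 407 CPM.

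The copies are close enough to raise the question whether tags can be assigned to one of them. The reads were 75 nt long and begin at the capped end. In the annotated transcripts (GENCODE 44) the first 75 bases of the genes match at 64 of 76 aligned positions, and the first stretch of 75 bases of HSPA1A that also stands whole in HSPA1B begins at base 209. Tags at the annotated starts thus differ between the genes. How tags that fit both were assigned is not given in the sources used here, and differences of sequence between the lines were not tested. HSPA1B is also overlapped on its own strand by an annotated gene without a symbol, so the split of tags between them is uncertain. Summed to 1 gene, the pair did not pass the test of “WWOX” versus “Vec” in any line. Between the “Vec” variants, the summed pair was higher in T98G than in DBTRG-05MG and did not pass between T98G and U87MG or U251MG.

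**Figure D2:**
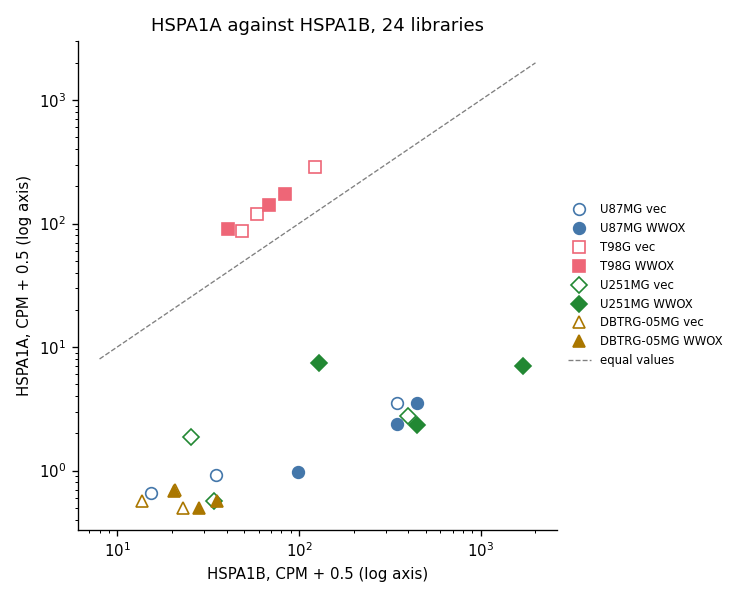
HSPA1A against HSPA1B in the 24 libraries, both as CPM + 0.5 on log axes, with a symbol per line, open for “Vec” and filled for “WWOX”, and a dashed line of equal values. The 6 T98G libraries lie above the line of equal values and the 18 others lie far below it, whatever the level of HSPA1B.

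HSPH1, the HSP110 nucleotide exchange factor of HSP70, moved over a smaller range. It stood at 142, 38.0, and 75.3 CPM in U87MG “Vec” and 169, 66.9, and 139 in U87MG “WWOX”. In U251MG it was 105, 99.7, and 45.8 CPM in “Vec” and 197, 163, and 141 in “WWOX”, and every “WWOX” library lay above every “Vec” library. In T98G and DBTRG-05MG all libraries lay within 44.1 to 96.5 CPM and the variants overlapped.

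BAG3, the co-chaperone that links HSP70 to small heat shock proteins and autophagy, lay between 77.8 and 245 CPM in all libraries. In T98G it stood at 85.4, 117, and 83.9 CPM in “Vec” and 136, 138, and 183 in “WWOX”, without overlap. In U251MG it was 169.8, 180.4, and 86.5 CPM in “Vec” and 245, 236, and 196 in “WWOX”. On the scaled values of the test the U251MG libraries overlapped. In U87MG the libraries ran from 77.8 to 182 CPM and in DBTRG-05MG from 95.6 to 130.0 CPM, with the variants overlapping in both.

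HSPB1, the small heat shock protein HSP27, was the most abundant member in all 24 libraries. It ran from 2329 to 3726 CPM in U87MG “Vec” and from 1239.6 to 2635 in U87MG “WWOX”. In T98G it ran from 776 to 855 CPM in “Vec” and from 1035 to 1107 in “WWOX”, without overlap. In U251MG it ran from 1084 to 1863 and from 1747 to 3168 CPM, and in DBTRG-05MG from 802 to 1182 and from 669 to 1227 CPM.

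In U87MG and U251MG, HSPA8 and HSP90AA1 scattered less than HSPA1B and DNAJB1. The SD within groups (log2) of HSP90AA1 was 0.264 in U87MG and 0.377 in U251MG but 0.795 in T98G and 0.552 in DBTRG-05MG, more there than that of HSPA1B or DNAJB1. HSPA8, the HSC70 of unstressed cells, ran from 80.4 to 452 CPM over all 24 libraries. HSP90AA1, the inducible HSP90 isoform that is also abundant at rest, was highest in U87MG, at 684, 456, and 752 CPM in “Vec” and 813, 783, and 609 in “WWOX”. It was lowest in T98G, at 119, 356, and 63.4 CPM in “Vec” and 145, 140.3, and 192 in “WWOX”. All 6 U87MG libraries lay above all 6 T98G libraries.

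The mitochondrial pair differed in level. HSPD1, the chaperonin HSP60, stood at 143 to 515 CPM over the 24 libraries. HSPE1, its lid HSP10, stood at 11.6 to 65.7 CPM. On chromosome 2 the annotated span of HSPD1 covers HSPE1 on the other strand, and HSPE1 also overlaps the readthrough gene HSPE1-MOB4, so the split of tags among them is uncertain. The use of strand in counting is not given in the sources used here, which also bears on DNAJB1 and HSP90AA1, overlapped on the other strand by TECR and WDR20. HSPA8 is overlapped on its own strand by SNORD14C, SNORD14D, and SNORD14E, and on the other strand by a gene without a symbol.

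None of the 10 members passed the test of “WWOX” versus “Vec” in any line (limma, Benjamini-Hochberg adjusted over 12327 genes, threshold 0.05). The share of all genes that passed was largest in U87MG at 3.2%, followed by T98G at 1.14%, DBTRG-05MG at 1.02%, and U251MG at 0.316%. An unadjusted p under 0.05 was reached by 5 members in U251MG, by 1 each in T98G and U87MG, and by 0 in DBTRG-05MG. Of all genes, 7.63% reached it in DBTRG-05MG, 11.5% in T98G, 11.5% in U251MG, and 11.5% in U87MG, so that 1 of 10 is near the background. The smallest adjusted p of a member was 0.259 in U251MG, 0.382 in T98G, 0.395 in U87MG, and 0.971 in DBTRG-05MG. On the recovered tags, DESeq2, edgeR, and voom also called 0 members in each line. Of all 12327 genes, DESeq2 called 125 to 487 in a line, edgeR 14 to 336, and voom 23 to 352.

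The median log2FC of the members was highest in U251MG, at 0.77, and stood at 0.27 in U87MG, 0.19 in T98G, and -0.07 in DBTRG-05MG, beside medians of all genes between -0.04 and 0.00. Without HSPA1A, which was at the detection limit in DBTRG-05MG, the median there was -0.10. In U251MG the members with an unadjusted p under 0.05 were HSPA1A, HSPA1B, HSPA8, HSPH1, and BAG3, each with a positive log2FC. HSPA1B had the largest value, a log2FC of 2.71 (SE 1.05, 95% interval 0.53 to 4.89, adjusted p = 0.301). HSPA1A had 1.78 (SE 0.64, adjusted p = 0.259), and HSPH1 had 1.06 (SE 0.40, adjusted p = 0.293). Without the library labelled U251MG “WWOX” replicate 2, HSPA1B had 1.53 (SE 1.06), HSPA1A had 1.33 (SE 0.71), HSPH1 had 0.84 (SE 0.45), the median of the members was 0.49, and 0 members had an unadjusted p under 0.05. The share of all genes under that p in this fit is not given here. This count thus cannot be set beside a background, and the share of the full fit does not serve as one. Without U251MG “Vec” replicate 3, HSPA1A had 1.13, HSPH1 0.69, HSPA8 0.38, and BAG3 0.36, and without U251MG “Vec” replicate 1 HSPA1B had 3.99.

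In U87MG, HSPB1 had the smallest p of the members, with a log2FC of -0.80 (SE 0.37, 95% interval -1.58 to -0.03, adjusted p = 0.395). HSPA1B had a log2FC of 2.07 (SE 1.05, 95% interval -0.11 to 4.25) there, so that a rise of several times and no change both lie within the interval. With 1 library left out it ran from 1.13 (without U87MG “Vec” replicate 2) to 3.37 (without U87MG “Vec” replicate 1). In T98G, BAG3 had 0.67 (SE 0.30, adjusted p = 0.382). In DBTRG-05MG no member exceeded a log2FC of 0.48 in size. The intervals there were also wide for HSPA1B (-1.70 to 2.66) and narrow for HSPD1 (-0.43 to 0.72). The model holds 1 estimate of spread per gene over all 24 libraries, so the SE of HSPA1B was 1.05 in every line. The width of its interval in DBTRG-05MG thus does not describe that line alone, where its SD within groups was 0.424.

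“WWOX” and “Vec” libraries did not overlap on the scaled values for 2 members in T98G (HSPB1 and BAG3, both higher in “WWOX”) and for 1 in U251MG (HSPH1, higher). They overlapped for all 10 in U87MG and DBTRG-05MG. Of all genes tested, 16.2% did not overlap in T98G, 10.4% in U251MG, 19.7% in DBTRG-05MG, and 17.5% in U87MG. Read against these shares, 2 of 10 in T98G and 1 of 10 in U251MG are near the background.

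In the mean of the 4 lines, 9 of 10 members had a positive log2FC and 0 passed the test, against 1.78% of all genes. The median of the members was 0.27. An unadjusted p under 0.05 was reached by 2 of 10 members beside 15.4% of all genes, which is near the background. These were HSPA1B, at 1.27 (SE 0.52, adjusted p = 0.249), and BAG3, at 0.37 (SE 0.15, adjusted p = 0.229). HSP90AA1 and HSPB1 were nearest to 0, at 0.07 (SE 0.20) and -0.02 (SE 0.19). Without the library labelled U251MG “WWOX” replicate 2 the median was again 0.27, HSPA1B had 0.97 (SE 0.49), and 1 member, BAG3, had an unadjusted p under 0.05. The share of all genes under that p without this library is not given here, so this count has no background beside it.

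Whether the effect differed between lines was tested as the effect in 1 line minus the mean effect in the other 3. No member passed, while 2.39% of all genes passed for U87MG, 1.54% for T98G, 0.422% for U251MG, and 0.982% for DBTRG-05MG. At an unadjusted p under 0.05 there were HSPB1 for U87MG, with a difference of -1.05 (SE 0.43, adjusted p = 0.336), and HSPA8 and HSPA1A for U251MG, with 0.99 (SE 0.45) and 1.62 (SE 0.74). That is 1 of 10 for U87MG beside 9.92% of all genes and 2 of 10 for U251MG beside 11.4%, and 0 members reached it for T98G and DBTRG-05MG beside 12.8% and 7.1%. For U251MG 0 members reached it once the library labelled U251MG “WWOX” replicate 2 was left out, where the share of all genes is not given here.

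**Figure D3:**
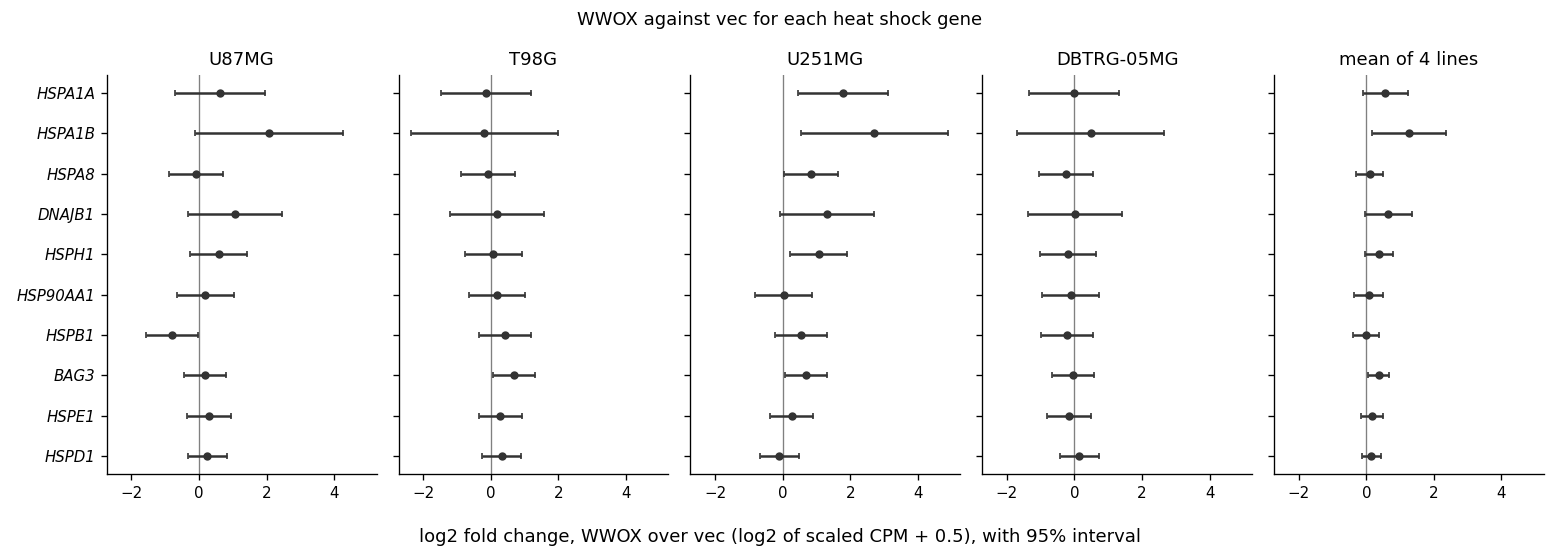
Log2FC of “WWOX” over “Vec” for each of the 10 genes in the 4 lines and in their mean, on the scale log2(scaled CPM + 0.5), with 95% intervals as bars and a grey line at 0. The intervals of HSPA1B, HSPA1A, and DNAJB1 are the widest, and for HSPA1B the value of U251MG lies furthest to the right.

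Differences between the “Vec” variants of the lines did pass the test for some members. U87MG “Vec” held more HSP90AA1 than T98G “Vec” (log2FC 2.15, SE 0.41, adjusted p = 0.000172), more HSPB1 (1.81, SE 0.37, adjusted p = 0.000426), and more HSPE1 (1.05, SE 0.31, adjusted p = 0.00928), and less HSPA1A (-6.84, SE 0.64, adjusted p = 9.35e-09). These 4 of 10 stood beside 39.8% of all genes. Against U251MG “Vec”, U87MG “Vec” held more HSPA8 (1.06, adjusted p = 0.0326), HSPB1 (1.09, adjusted p = 0.0239), and HSPE1 (1.08, adjusted p = 0.00797), which is 3 of 10 beside 38.6% of all genes. Against DBTRG-05MG “Vec” it held more HSP90AA1 (1.49, adjusted p = 0.00480) and HSPB1 (1.68, adjusted p = 0.000822), which is 2 of 10 beside 44.1%. HSPB1 was the member that passed between U87MG and each of the other 3 lines. Without U251MG “Vec” replicate 3, 1 member, HSPE1, passed between U87MG and U251MG.

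T98G “Vec” held more HSPA1A than U251MG “Vec” (log2FC 6.79, SE 0.64, adjusted p = 1.53e-08) and less HSP90AA1 (-1.14, SE 0.41, adjusted p = 0.0354), 2 of 10 beside 32.3% of all genes. Against DBTRG-05MG “Vec” it held more HSPA1A (adjusted p = 6.75e-10), where DBTRG-05MG was at the detection limit, and less HSPE1 (-0.79, SE 0.31, adjusted p = 0.0460), 2 of 10 beside 41.2%. Between U251MG “Vec” and DBTRG-05MG “Vec” HSPE1 passed (-0.82, SE 0.31, adjusted p = 0.0488), 1 of 10 beside 31.6%. The fold changes of HSPA1A are on the log2(scaled CPM + 0.5) scale, which understates the change of a gene near 0. DNAJB1, HSPH1, BAG3, HSPD1, and HSPA1B passed in none of these 6 comparisons of lines by limma. By edgeR and DESeq2 HSPA1B and HSPA1A were also higher in U87MG “Vec” and U251MG “Vec” than in DBTRG-05MG “Vec”. The calls of HSPE1 against DBTRG-05MG lie near the threshold, and of 24 fits that each left out 1 library they were lost in 11 for T98G and 13 for U251MG. The call of HSP90AA1 between T98G and U251MG was lost without T98G “Vec” replicate 1 or 3 or U251MG “Vec” replicate 1 or 2. Without T98G “Vec” replicate 2, 4 members passed between T98G and DBTRG-05MG, HSP90AA1 and HSPD1 besides. For HSPA1B the intervals were wide, from -2.31 to 2.05 between U87MG and U251MG.

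The order of the “Vec” variants by mean level differed from gene to gene. For HSP90AA1 it was U87MG, U251MG, DBTRG-05MG, T98G. U87MG and U251MG did not pass the test (1.02, limma adjusted p = 0.0518), though their libraries did not overlap on the scaled values. U251MG and DBTRG-05MG did not pass either, nor did DBTRG-05MG and T98G. For HSPE1 it was U87MG, DBTRG-05MG, T98G, U251MG. There U87MG and DBTRG-05MG (limma adjusted p = 0.518) and T98G and U251MG (adjusted p = 0.962) did not pass the test. For HSPB1 U87MG stood first, and no pair of the other 3 passed the test. The libraries of T98G and U251MG nevertheless did not overlap on the scaled values (limma adjusted p = 0.149).

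The spread within groups divided the members. As a pooled SD over the 8 groups on the log2 scale, HSPA1B had 1.48 and stood in place 10 of 12327 genes from the largest, beside a median of 0.398 over all genes. DNAJB1 had 0.928 (place 249) and HSPA1A 0.882 (place 302). HSPH1 had 0.539, HSP90AA1 0.536, HSPA8 0.508, and HSPB1 0.464, all above the median. HSPE1 had 0.388, BAG3 0.375, and HSPD1 0.330, all below it. HSPA6, the strictly inducible HSP70 gene that many cells lack at rest, had 2.12 and was the gene with the largest spread of all. With the library labelled U251MG “WWOX” replicate 2 left out, HSPA1B had 1.35 (place 14), DNAJB1 0.778 (place 445), and HSPA6 2.06 (place 1), beside a median of 0.355.

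**Figure D4:**
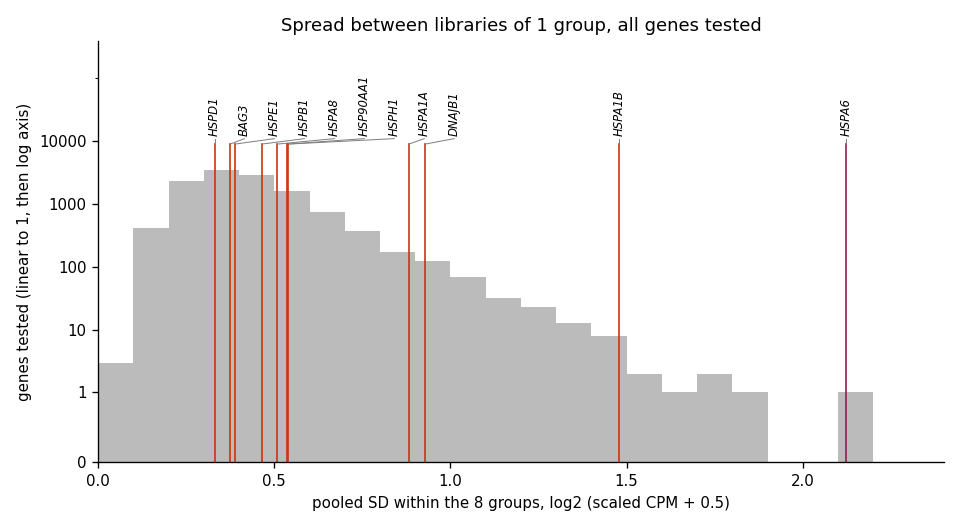
Number of genes (linear to 1, then a log axis) by their pooled SD within the 8 groups, in log2 of scaled CPM + 0.5, for all 12327 genes tested, with lines at the 10 members (red) and HSPA6 (purple). Most members lie within the bulk, DNAJB1 and HSPA1A lie in its right tail, and HSPA1B and HSPA6 lie near or at its end.

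The spread was itself a matter of the line. HSPA1B had an SD of 1.85 in U87MG and 2.20 in U251MG (places 3 and 20 from the largest), but 0.553 in T98G and 0.424 in DBTRG-05MG. DNAJB1 had 1.12 and 1.46 in the former lines and 0.160 and 0.187 in the latter. The medians over all genes were 0.309 in U87MG, 0.470 in U251MG, 0.351 in T98G, and 0.280 in DBTRG-05MG. Once the same library was left out, the SD in U251MG was 1.97 for HSPA1B (place 51), 1.13 for DNAJB1 (place 406), and 2.78 for HSPA6 (place 1), beside a median of 0.324. The wide spread of these members was thus seen in the lines grown in EMEM, and line and medium cannot be told apart.

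HSPA6 traced the same libraries more steeply. In U87MG “Vec” it stood at 689, 3.55, and 7.01 CPM, and in U87MG “WWOX” at 377, 117, and 618. In U251MG “Vec” it stood at 471, 5.09, and 22.6 CPM, and in U251MG “WWOX” at 513, 2405, and 183. In T98G it ran from 21.8 to 126 CPM, and in DBTRG-05MG it stayed at or below 4.78 CPM. HSPA6 resembles its pseudogene HSPA7 nearby, so its tags may be shared with it. Its log2FC did not pass the test in any line (3.39 in U87MG, SE 1.50, adjusted p = 0.352, and 3.94 in U251MG, SE 1.50, adjusted p = 0.293). Without the library labelled U251MG “WWOX” replicate 2 the value in U251MG was 2.72 (SE 1.62, adjusted p = 0.325 by limma).

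**Figure D5:**
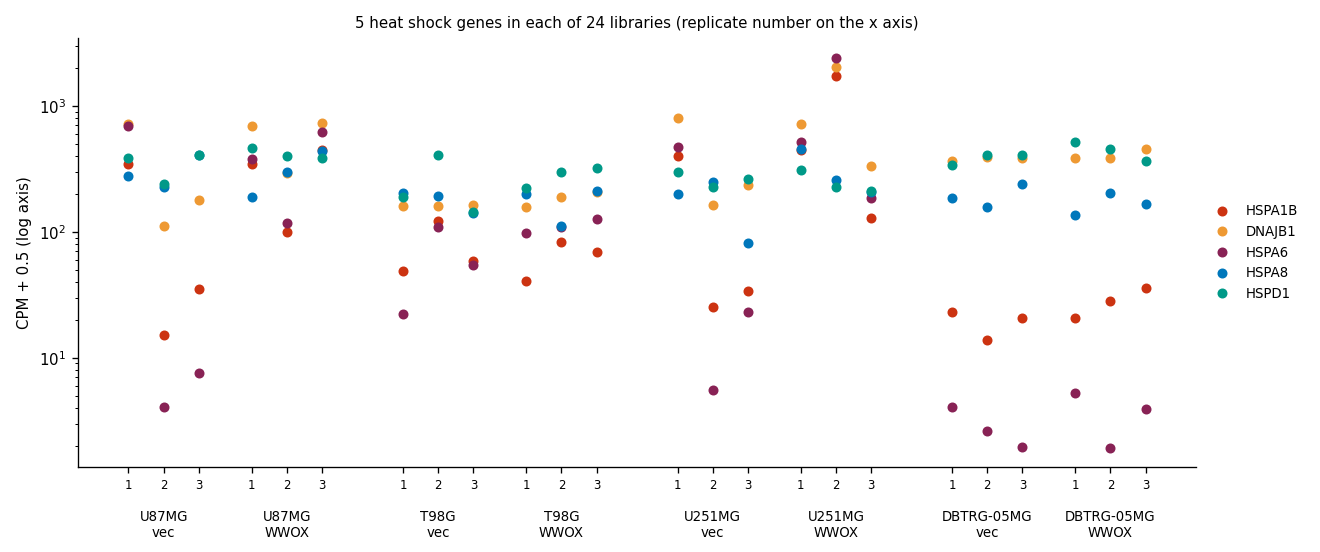
CPM + 0.5 on a log axis for 5 heat shock genes in each of the 24 libraries, grouped by line and variant, with the replicate number on the x axis. HSPA1B, DNAJB1, and HSPA6 are high together in replicate 1 of U87MG “Vec” and of U251MG “Vec” and highest in replicate 2 of U251MG “WWOX”, while HSPA8 and HSPD1 vary less.

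Correlations over the 24 libraries, taken after subtracting each group's mean, describe which members moved together. The libraries share the scaling and no p is given. HSPA1B followed DNAJB1 with r = 0.96, BAG3 with 0.78, HSPH1 with 0.73, HSPA1A with 0.70, and HSPD1 with 0.57. It followed HSPB1 with 0.31, HSPA8 with 0.25, HSP90AA1 with 0.15, and HSPE1 with -0.27. HSPH1 and BAG3 followed each other with 0.89. Without the library labelled U251MG “WWOX” replicate 2, HSPA1B still followed DNAJB1 with 0.96 and HSPA6 with 0.94, whereas HSPB1 had 0.037 and HSPE1 -0.027. Over the 6 libraries of a line, HSPA1B and DNAJB1 had r = 1.00 in U87MG and 0.98 in U251MG, but 0.10 in T98G and 0.46 in DBTRG-05MG, where DNAJB1 varied little. HSPA1B and HSPA1A had 0.98 in T98G, 0.98 in U87MG, 0.49 in U251MG, and -0.42 over the libraries of DBTRG-05MG, where HSPA1A was at the detection limit. The pooled values of HSPH1 and HSPD1 were also not shared by all 4 lines. HSPA1B and HSPH1 had 0.96 in U87MG, 0.77 in T98G, and 0.69 in U251MG but -0.35 in DBTRG-05MG. In the same order of lines HSPA1B and HSPD1 had 0.65, 0.82, and 0.87 but -0.98. For HSPA1B and BAG3 the values were 0.95, 0.53, 0.68, and 0.81 in that order.

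Other measures that moved with HSPA1B within groups were the immediate early genes FOS (r = 0.85), ATF3 (0.77), and FOSB (0.71). Such genes are transcribed within minutes of many stimuli. The list of immediate early genes holds 8, and r with HSPA1B is not given for the rest. Their summed level was 1301, 1369, and 1570 CPM in U87MG “Vec” (replicates 1 to 3), lowest where HSPA1B was highest. In U251MG “Vec” it was 1323, 855, and 943 CPM, highest where HSPA1B was highest. By line, FOS had r = 0.99 in U87MG, 0.83 in U251MG, 0.90 in T98G, and 0.50 in DBTRG-05MG. ATF3 had 0.96 and 0.79 in U87MG and U251MG but -0.35 and -0.59 in T98G and DBTRG-05MG. In the same order of lines FOSB had 0.98 and 0.57 but -0.16 and -0.24. FOS stood at 25.1, 1.62, and 3.02 CPM in U87MG “Vec” and at 10.4, 33.7, and 17.1 in U251MG “WWOX”. WWOX itself had r = -0.09 over the 24 libraries, with 0.95 over the 6 of T98G, 0.87 in U87MG, -0.36 in DBTRG-05MG, and -0.41 in U251MG. Library depth had -0.09 over all and 0.70 in T98G and -0.87 in DBTRG-05MG. The part of these measures in the levels of HSPA1B was not tested.

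The genes whose levels over the 24 libraries were most like those of a member were found by Pearson's r on the log2 scale. For HSPA1B these were HSPA6 (0.94), TFE3 (0.86), and FOSB (0.84). For HSPH1 they were FOS (0.85), FOSB (0.82), and HSPA6 (0.76). For DNAJB1 they were DEDD2 (0.83), ACER2 (0.83), and RASD1 (0.78), and for HSPD1 they were RMC1 (0.87), FAR1 (0.83), and NBAS (0.82). For HSPA1A, whose level separates T98G from the rest, they were PLIN2 (0.96), MGMT (0.95), and TMEM198 (0.95), of which PLIN2 had r = -0.01 once the group means were subtracted. HSPA6, FOS, and FOSB were also in the lists below.

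The lists of related genes give the surroundings of the members. Of all genes, 0.316% to 3.2% passed in a line, so 0 in a short list is near the background. Of the regulators (HSF1, HSF2, HSBP1, with HSF4 too low to be tested), 0 of 3 passed in any line. HSF1, the main factor of the response, stood between 151 and 381 CPM in all 24 libraries. Among the other HSP70, HSP110, and J-domain genes 0 of 11 tested passed, among the BAG family and other HSP70 regulators 0 of 7, among the other mitochondrial chaperones and proteases 0 of 8, among the endoplasmic reticulum chaperones 0 of 8, and among the immediate early genes 0 of 8. HSPA5, the endoplasmic reticulum HSP70, also varied widely within groups, with a pooled SD of 1.50, and had r = 0.64 with HSPA1B (-0.76 over the libraries of DBTRG-05MG). Among HSP90 and its co-chaperones 0 of 11 passed in any line. In the mean of the 4 lines 0 genes of these lists passed, beside 1.78% of all genes.

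Among the other small heat shock genes 1 of 4 tested passed in U87MG and in DBTRG-05MG, beside 3.2% and 1.02% of all genes. In both lines this was HSPB6, which encodes HSP20, a partner of HSPB1 best known from muscle. It stood at 52.3, 61.4, and 29.5 CPM in U87MG “Vec” and at 7.83, 5.63, and 10.1 in U87MG “WWOX”, without overlap. It fell there by 2.56 on the log2 scale (SE 0.35, adjusted p = 3.15e-05). In DBTRG-05MG it stood at 1.64, 0.773, and 2.11 CPM in “Vec” and at 7.55, 10.3, and 11.8 in “WWOX”, also without overlap. It rose there with a log2FC of 2.33 (SE 0.35, adjusted p = 0.000419, or 0.0519 with a model of DBTRG-05MG alone). In T98G and U251MG no library exceeded 1.15 CPM. The direction of HSPB6 was thus opposite in U87MG and DBTRG-05MG.

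Of the 8 subunits of CCT, the cytosolic chaperonin that folds actin and tubulin, 1 passed in 1 line. That line was DBTRG-05MG, where 1.02% of all genes passed. TCP1 stood at 193, 188, and 183 CPM in DBTRG-05MG “Vec” and at 99.0, 89.7, and 105 in “WWOX”, and fell by 1.00 on the log2 scale (SE 0.22, adjusted p = 0.0240). The call was lost in 4 of 24 fits that each left out 1 library, and the adjusted p reached 0.153 without DBTRG-05MG “WWOX” replicate 2. CDC37, which brings kinases to HSP90, stood at 5.41, 14.0, and 13.2 CPM in T98G “Vec” and at 24.9, 21.7, and 56.6 in “WWOX”, with a log2FC of 1.60 (SE 0.41, adjusted p = 0.0600).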

How the data were processed

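CAGE-Seq libraries of 24 cell samples were analysed from 1 table of the whole series. The deposited values are CPM, which the authors made by aligning 75 nt reads to hg38 with STAR, counting tags per gene, and scaling each library to 1000000 tags. The submitters' processing notes also name SAMtools and limma 3.42. The annotation, the use of strand, and the handling of reads that fit several genes are not given in the sources used here. In each library all values were whole multiples of the value of 1 tag (tolerance 0.01 tags), which gave the tags and the depth, 10756072 to 16953689 per library (median 14584829). These totals limit precision through counting error only. No column was left unused (0 columns).

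The filter kept every gene that reached 5 CPM in 1 library or more. CPM were scaled by TMM factors (trims 30% and 5%, edgeR 4.0.16) and taken as log2(scaled CPM + 0.5), which understates the change of low genes. A limma 3.58.1 model with 8 group means and a trend of variance with mean level was fitted over all genes, with Benjamini-Hochberg adjustment over all of them and a threshold of 0.05. It holds 1 estimate of spread per gene, shared by the 8 groups, also where the spread differs between lines. The log2FC are in units of log2(scaled CPM + 0.5). Libraries of a variant were treated as replicates. Alternatives were pseudocounts of 0.1 and 1, other filters, CPM as deposited, separate models, a replicate block, HSPA1A and HSPA1B summed, each library left out, and, on the recovered tags, DESeq2 1.42.0, voom, and the quasi-likelihood test of edgeR. Those for genes outside the 10 were added after seeing the data. The model was also run on simulated data, in which every gene was given the same small spread beyond counting error. A spread as wide as that of HSPA1B or HSPA6 was not simulated, so the run does not bear on such genes. Whether same-numbered libraries deviate together was checked and they do not in every pair, so numbers were not used as pairs.

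The members and the lists of related genes were chosen with earlier results of these data known. Named are all members, listed genes that passed the test in a line, the mean, or a difference of lines, and the 3 genes most like each of HSPA1A, HSPA1B, DNAJB1, HSPH1, and HSPD1. HSPA6, HSPA5, FOS, ATF3, and HSF1 were named outside that rule for some values after these were seen. Promoter windows were read from RefSeq (GRCh38.p14). R 4.3.3, Python 3.11.15, pandas 2.3.3, numpy 2.4.6, scipy 1.17.1, Biopython 1.88, and matplotlib 3.10.9 were used.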

Additional observations from a re-analysis of the deposited data

Results flagged for a closer look

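For 3 values outside the 10 heat shock genes the effect (“WWOX” against “Vec” cells) in 1 line differed from the mean effect in the other 3 lines by the limma test of that difference. Of all genes, 2.39% passed this test for U87MG, 0.982% for DBTRG-05MG, and 1.54% for T98G. For HSPB6 the effect in U87MG minus the others was -3.32 on the log2 scale (SE 0.40, adjusted p = 8.15e-06), and the effect in DBTRG-05MG minus the others was 3.21 (SE 0.40, adjusted p = 5.10e-05). These values share the same libraries and are not independent of each other. For CDC37 the effect in T98G minus the others was 1.89 (SE 0.47, adjusted p = 0.0420), and this was lost in 16 of 24 fits that each left out 1 library, with a largest adjusted p of 0.239 without T98G “Vec” replicate 1.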

How the results depend on the processing

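The count of 0 members called for “WWOX” versus “Vec” in each line, in the mean, and in each difference between lines did not change under any alternative run, including the fits without 1 library. Counts between “Vec” variants moved. Between U87MG and U251MG 3 members became 1 with CPM as deposited. Between U87MG and DBTRG-05MG 2 became 4 with edgeR and 4 with DESeq2. Between T98G and U251MG 2 became 1 without a filter, with a separate model, with the replicate block, with edgeR, with DESeq2, and with HSPA1A and HSPA1B summed. Between T98G and DBTRG-05MG 2 became 1 without a filter, with the replicate block, and with edgeR. Between U251MG and DBTRG-05MG 1 became 0 without a filter, with a mean of at least 5 CPM, with CPM as deposited, and with the replicate block, 2 with edgeR, and 3 with DESeq2. With 1 library left out these counts ran from 1 to 4, 1 to 2, 1 to 4, and 0 to 1 for U87MG and U251MG, T98G and U251MG, T98G and DBTRG-05MG, and U251MG and DBTRG-05MG. Of the 15 genes most like a member, 6 were also found with Spearman's rho. TCP1 in DBTRG-05MG no longer passed with a separate model (adjusted p = 0.0657), the replicate block (0.133), and edgeR (0.0591), and CDC37 in T98G against the other lines no longer passed under 5 alternatives (0.0514 to 0.0597). The cause was not tested.

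Same-numbered libraries had correlations of deviations from -0.55 to 0.51, so the numbers do not pair them.

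Members that changed sign did not pass in any fit. HSPA8 in T98G had 0.0024 with DESeq2. HSP90AA1 had -0.11 (edgeR) and -0.069 (DESeq2) in T98G, -0.025 and -0.032 in U251MG, and -0.033 and -0.0297 in the mean. HSPA1A in DBTRG-05MG had 0.48 when summed with HSPA1B, BAG3 in DBTRG-05MG had 0.023 with CPM as deposited, and HSPB1 in the mean had 0.018 with CPM as deposited, 0.037 with edgeR, and 0.044 with DESeq2. With 1 library left out, log2FC ran in U87MG from -0.40 to 0.26 (HSPA8), -0.022 to 0.29 (HSP90AA1), and -0.10 to 0.46 (BAG3). In T98G it ran from -0.50 to 0.28 (HSPA1A), -0.45 to 0.14 (HSPA1B), -0.22 to 0.22 (HSPA8), -0.070 to 0.31 (HSPH1), and -0.29 to 0.78 (HSP90AA1). In U251MG it ran from -0.27 to 0.22 (HSP90AA1) and -0.28 to 0.12 (HSPD1). In DBTRG-05MG it ran from -0.11 to 0.099 (HSPA1A), -0.11 to 0.10 (DNAJB1), -0.36 to 0.28 (HSP90AA1), -0.50 to 0.034 (HSPB1), and -0.11 to 0.026 (BAG3). In the mean it ran from -0.0096 to 0.20 (HSPA8), -0.064 to 0.22 (HSP90AA1), and -0.15 to 0.048 (HSPB1).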
